A study of Mus musculus with 6 samples.

Results

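The C-type lectin pattern receptors described here are 9 genes, *Clec4a1*, *Clec4a2*, *Clec4a3*, *Clec4d*, *Clec4e*, *Clec4n*, *Clec5a*, *Clec7a* and *Clec12a*, taken by gene symbol from a list and matched to 9 of the 55291 genes of the deposited table. Transcript levels were measured by sequencing poly(A) RNA of mouse macrophages derived from bone marrow (BMDM), the phagocytes that marrow precursors form in culture. A group of 3 libraries came from BMDM pretreated with apoptotic cells (AC), and a group of 3 from BMDM without that treatment. For the mice the genotype, strain and age, and for the apoptotic cells their source, amount and time of contact, are unstated in the labels. Levels are in TPM, a measure scaled by gene length that sums to 1000000 in each library, and means are given ± SD.

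C-type lectin receptors are membrane proteins whose extracellular lectin-like domain binds sugars, lipids or proteins of microbes and of damaged cells. The activating members signal through the kinase Syk, either by a motif of their own or through the adaptors FcRγ (*Fcer1g*) and DAP12 (*Tyrobp*), and then through Card9 to NF-κB. The inhibitory members carry a motif in their cytoplasmic tail that recruits phosphatases. Macrophages are among the cells best known for carrying both kinds.

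The promoters of *Clec5a*, *Clec4d* and *Clec7a* are shown because *Clec5a* was the gene whose groups did not overlap, and because *Clec4d* and *Clec7a* followed a like pattern over the libraries. They are RefSeq windows of GRCm38.p6 (mm10), of 300 bases around the annotated start, written 5′ to 3′ on the gene's strand. Capitals mark matches, on either strand, to an ETS-type motif (AGGAAG), the kind bound by the macrophage factor PU.1. An AP-1-type motif (TGANTCA) was also searched on both strands. So was a C/EBP-type motif (TTGCNNAA), and no matches to different motifs overlapped.
Clec5a (chr6:40585756-40586055, minus strand): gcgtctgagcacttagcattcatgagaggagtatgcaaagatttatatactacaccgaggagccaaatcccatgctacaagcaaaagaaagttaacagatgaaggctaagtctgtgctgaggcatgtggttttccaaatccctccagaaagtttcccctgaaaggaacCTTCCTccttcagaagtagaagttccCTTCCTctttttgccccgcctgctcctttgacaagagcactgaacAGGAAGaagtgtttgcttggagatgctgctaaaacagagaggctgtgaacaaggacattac
Clec4d (chr6:123261857-123262156, plus strand): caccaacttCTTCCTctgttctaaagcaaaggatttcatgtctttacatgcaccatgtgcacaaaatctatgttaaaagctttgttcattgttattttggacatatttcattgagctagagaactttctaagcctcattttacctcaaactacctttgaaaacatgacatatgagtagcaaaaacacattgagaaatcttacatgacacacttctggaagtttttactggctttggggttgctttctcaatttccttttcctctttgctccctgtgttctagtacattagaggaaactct
Clec7a (chr6:129472730-129473029, minus strand): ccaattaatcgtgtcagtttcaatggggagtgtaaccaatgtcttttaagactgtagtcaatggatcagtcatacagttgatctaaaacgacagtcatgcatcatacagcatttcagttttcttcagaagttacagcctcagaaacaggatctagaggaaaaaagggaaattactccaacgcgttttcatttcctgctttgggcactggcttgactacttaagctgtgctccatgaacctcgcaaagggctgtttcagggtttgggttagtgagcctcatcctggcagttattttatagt
The *Clec5a* window held 3 matches to the ETS-type motif, the *Clec4d* window 1, and the *Clec7a* window none of the 3 motifs. Of the 9 genes, 8 had a window in the table. With the first window of each gene, 5 of these 8 held the ETS-type motif, 2 the AP-1-type motif and 2 the C/EBP-type motif. Over all 32851 mouse promoter windows the share with a match was 35.4% for the ETS-type, 7.81% for the AP-1-type and 10.8% for the C/EBP-type motif. These matches are letters in a window and say nothing of binding.

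All 9 genes lie on chromosome 6 in mm10, and 8 of them in a pair of dense lectin gene clusters. The first cluster ran from *Clec4a1* (122921848 to 122934619) to *Clec4e* (123281789 to 123289870) and held 9 protein-coding genes. Within it neighbours differed widely in level: over the 6 libraries *Clec4d* averaged 419 ± 109 TPM, while *Clec4n* just before it averaged 15.7 ± 1.87 TPM and *Clec4e* just after it 3.30 ± 0.778 TPM. The second cluster ran from *Clec12a* (129342691 to 129365303) to *Clec7a* (129461591 to 129472779). *Clec12a* averaged 588 ± 84.5 TPM and *Clec7a* 361 ± 91.7 TPM at its ends, and the 4 genes between them, *Clec12b*, *Clec1b*, *Clec9a* and *Clec1a*, averaged between 0.493 and 0.887 TPM. *Clec5a* (40574894 to 40585821) lay apart from both.

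**Figure D1:**
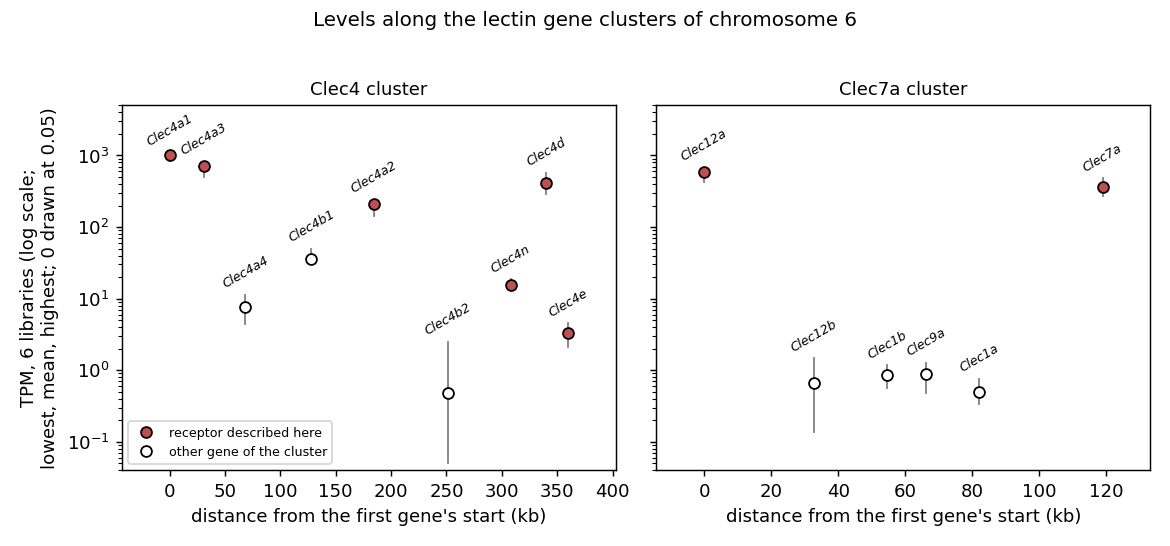
Level of each gene of the Clec4 and Clec7a clusters on chromosome 6 (y axis, TPM on a log scale, point at the mean of 6 libraries and line over their range, with 0 drawn at 0.05) against its distance in kb from the start of the first gene (x axis). Filled points are receptors described here; in the Clec7a cluster the 4 genes between *Clec12a* and *Clec7a* average below 1 TPM.

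The libraries held 19330350 to 32649089 reads recovered on genes. Both groups carried the macrophage markers *Adgre1*, *Cd68* and *Csf1r*, and 10 T cell markers summed to 10.7 to 17.3 TPM in AC pretreated and 9.66 to 15.6 TPM in untreated libraries. Most of that sum was *Cd4*; the other 9 were below 1 TPM in every library, and *Cd3d*, *Cd8b1* and *Themis* were at 0. Some libraries stood apart in ways the labels do not give. *Lyz2*, the lysozyme gene of myeloid cells, stood at 83.7 TPM in untreated replicate 1 and at 9270.5 to 12451 TPM in the other 5 libraries. The small RNA gene *Gm23935* took 73936 TPM in AC replicate 3, against 9648 to 13452 TPM elsewhere. Of 18 placental genes, 13 were above 0 somewhere, with sums of 28.8 and 138 TPM in AC replicates 1 and 2, 14.2 and 31.1 TPM in untreated replicates 1 and 2, and 0 in replicate 3 of both groups. Replicates 1 and 2 are therefore also compared apart from replicate 3. The labels do not tie replicates to different cultures or mice, and the p-values therefore speak of library-to-library spread alone, possibly a technical one.

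Together the 9 receptors took 0.332, 0.380 and 0.275% of all TPM in AC replicates 1, 2 and 3, against 0.309, 0.335 and 0.363% in untreated replicates 1, 2 and 3. The groups overlapped, and the lowest share was that of AC replicate 3. By the mean over the 6 libraries the order of levels was *Clec4a1*, *Clec4a3*, *Clec12a*, *Clec4d*, *Clec7a*, *Clec4a2*, *Clec5a*, *Clec4n* and *Clec4e*. Single libraries departed from it in 3 places: *Clec4d* was above *Clec12a* in AC replicate 3, *Clec7a* above *Clec4d* in untreated replicate 3, and *Clec4n* above *Clec5a* in AC replicate 1. *Clec4a1* averaged 1003 ± 89.8 TPM, above 99.02% of the 12603 genes tested, and *Clec4e* stood above 18.6% of them. The ranges over the 6 libraries overlapped between the neighbours *Clec4a3* and *Clec12a*, *Clec12a* and *Clec4d*, *Clec4d* and *Clec7a*, and *Clec5a* and *Clec4n*. They did not overlap between the other neighbours, *Clec4a1* and *Clec4a3*, *Clec7a* and *Clec4a2*, *Clec4a2* and *Clec5a*, and *Clec4n* and *Clec4e*. The order rests on the length behind each level: *Clec12a* has 5528 merged exon bases and a longest coding transcript of 2502 bases, and scaled by that transcript its level would be 1300.1 TPM, above that of *Clec4a1*. The *Clec4a* genes are close paralogs, as are their *Clec4b* neighbours, and the labels leave out how reads matching several genes were counted, so their separate levels are uncertain.

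**Figure D2:**
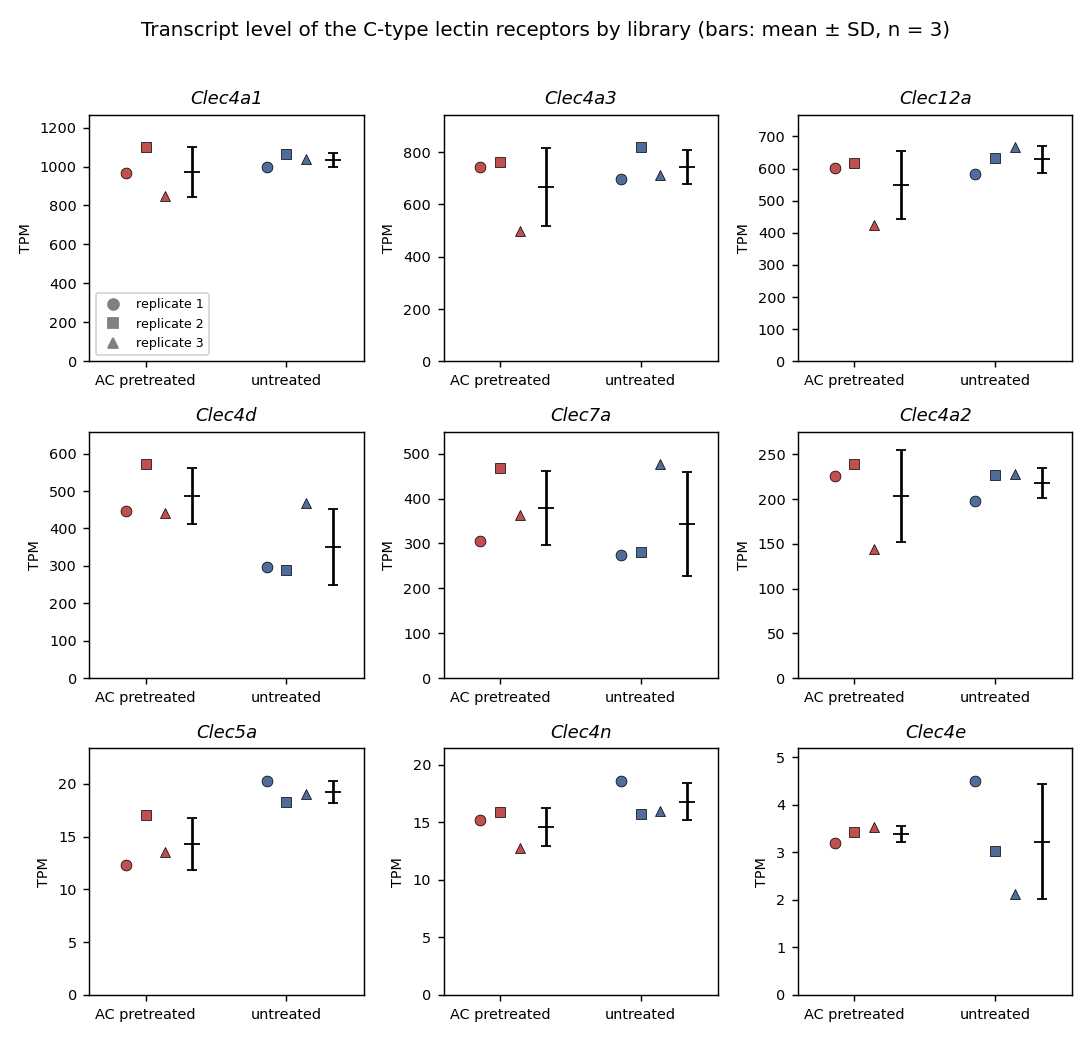
TPM of each receptor (y axes, linear from 0) in the AC pretreated and untreated libraries (x axes), with a symbol per replicate and the mean ± SD of n = 3 beside them. The *Clec5a* values of the AC libraries, 12.3 to 17.1 TPM, lie below all untreated values, and every other receptor overlaps between the groups.

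The contrast of AC pretreated with untreated libraries asks whether receptor transcripts differ once macrophages have met apoptotic cells. None of the 9 receptors passed the test, which with 3 libraries a group does not show them to be unchanged. Over all genes limma on log2(TPM + 1) called 0 of 12603 at an adjusted p under 0.05 (0%), and every receptor had an adjusted p of 1.0. *Clec4d* had the largest higher mean after AC pretreatment and *Clec5a* the largest lower one. At an unadjusted p under 0.05, limma gave 2 of the 9 receptors, *Clec4d* in the higher direction and *Clec5a* in the lower, where it gave 1.3% of all genes, 0.421% higher and 0.881% lower. The members were chosen with earlier results of these data known, so that count is a description. It rests on single libraries. It was 0 without AC replicate 1, without untreated replicate 1 and without untreated replicate 2, and 1 without AC replicate 2, without AC replicate 3 and without untreated replicate 3. Lower means were the more common direction over all genes: 70.6% of genes and 6 of the 9 receptors (66.7%) had one. The median log2 difference was -0.07 over all genes and -0.13 over the receptors. This lean over all genes depended on the scaling and on single libraries. The median over all genes was -0.0079 with median-of-ratios scaling. On leaving out 1 library it ran from -0.11 (without AC replicate 3) to 0.0094 (without AC replicate 1). The shares of lower means in the lists below carry the same limit. In bulk RNA, fewer cells of a type and less RNA per cell cannot be told apart.

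**Figure D3:**
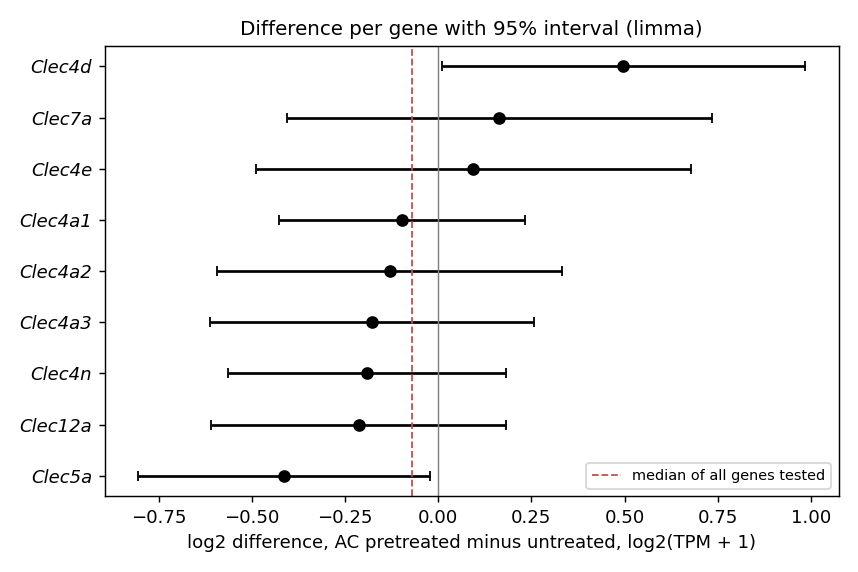
Log2 difference of each receptor, as AC pretreated minus untreated in log2(TPM + 1) units (x axis) by gene (y axis), with its 95% interval from limma. The dashed line is the median of all genes tested, -0.07; *Clec4d* at 0.50 and *Clec5a* at -0.41 are the outermost receptors.

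*Clec5a* encodes MDL-1, an activating receptor of myeloid cells that signals through DAP12. It stood at 12.3, 17.1 and 13.5 TPM in AC replicates 1, 2 and 3, against 20.3, 18.3 and 19.0 TPM in untreated replicates 1, 2 and 3. Every AC library was below every untreated one, which held for 1 of the 9 receptors and for 4.42% of all genes, 3.48% in the lower and 0.936% in the higher direction. The means were 14.3 ± 2.49 TPM in AC pretreated and 19.2 ± 1.01 TPM in untreated libraries (n = 3 each). The log2 difference was -0.41 ± 0.17 (SE; 95% interval -0.80 to -0.02), with an adjusted p of 1.0 by limma. Between 361 and 762 reads per library lay behind these values. The groups also stayed apart with median-of-ratios scaling, at 12.9 to 16.5 TPM in AC pretreated and 18.1 to 19.2 TPM in untreated libraries. *Clec5a* was lower in AC pretreated libraries among replicates 1 and 2 (-0.39 ± 0.23) and in replicate 3 (-0.47), with 1 library a group in the last. Leaving out 1 library at a time gave -0.54 to -0.32. As every AC value was below every untreated one, none of these sets of libraries could have turned the direction.

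*Clec4d* encodes MCL, a receptor that pairs with Mincle and binds mycobacterial glycolipid. Its levels were 447, 573 and 440.2 TPM in AC replicates 1, 2 and 3, against 297, 288 and 467 TPM in untreated replicates 1, 2 and 3. Untreated replicate 3 lay among the AC libraries, so the groups overlapped, while the other pair of untreated libraries lay well below all AC ones. The means were 487 ± 74.9 TPM in AC pretreated and 351 ± 101 TPM in untreated libraries (n = 3 each). The log2 difference was 0.50 ± 0.21 (95% interval 0.01 to 0.98, adjusted p of 1.0 by limma). It was 0.79 ± 0.17 among replicates 1 and 2 (adjusted p = 0.891 by limma) and -0.085 between the libraries of replicate 3, so the direction turned between these sets. Leaving out 1 library at a time gave 0.37 to 0.72, the highest without untreated replicate 3. In the interaction fits given here and below, replicate 3 has 1 library a group. Their SE thus holds no spread among libraries of replicate 3, and a set effect cannot be told from 1 odd library. The interaction of AC pretreatment with library set, replicates 1 and 2 minus replicate 3, was 0.87 ± 0.30 in log2 units, with an adjusted p of 0.697 by limma.

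*Clec7a* encodes Dectin-1, the β-glucan receptor of fungal recognition, which reaches Syk by a motif in its own tail. It is annotated as a polymorphic pseudogene in GENCODE mouse release 21. It stood at 305, 467 and 363 TPM in AC replicates 1, 2 and 3, against 274, 281 and 478 TPM in untreated replicates 1, 2 and 3. As for *Clec4d*, untreated replicate 3 was far above the other untreated libraries, and the groups overlapped. The means were 379 ± 82.0 TPM in AC pretreated and 344 ± 116 TPM in untreated libraries, a log2 difference of 0.16 ± 0.25 (95% interval -0.40 to 0.73). That value rests on single libraries: it was 0.0020 without AC replicate 2, 0.02 without untreated replicate 1, 0.04 without untreated replicate 2, 0.31 without AC replicate 1 and 0.43 without untreated replicate 3. Among replicates 1 and 2 it was 0.44 ± 0.22, and in replicate 3 it was -0.40. The interaction with library set was 0.84 ± 0.38 in log2 units (adjusted p = 0.697 by limma).

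*Clec4e* encodes Mincle, which binds mycobacterial cord factor and a nuclear protein released by dead cells, and *Clec4n* encodes Dectin-2, a receptor for fungal mannans. Both signal through FcRγ. *Clec4e* was the lowest of the 9, at 3.20, 3.42 and 3.53 TPM in AC replicates 1, 2 and 3, against 4.51, 3.03 and 2.11 TPM in untreated replicates 1, 2 and 3. All AC values lay inside the untreated range, and 67 to 163 reads per library lay behind them. The log2 difference was 0.09 ± 0.25 (95% interval -0.49 to 0.68); it was 0.31 without untreated replicate 1, and -0.10 without untreated replicate 3. Among replicates 1 and 2 it was -0.13 ± 0.28, and in replicate 3 it was 0.54. Its interaction with library set was -0.67 ± 0.49 (adjusted p = 0.753 by limma), the only negative one among the 9 receptors. *Clec4n* stood at 15.1, 15.9 and 12.8 TPM in AC replicates 1, 2 and 3, against 18.6, 15.7 and 16.0 TPM in untreated replicates 1, 2 and 3. Its groups overlapped by a narrow margin, and its log2 difference was -0.19 ± 0.16 (95% interval -0.56 to 0.18), or -0.12 without untreated replicate 1 and -0.10 without AC replicate 3.

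*Clec12a* encodes a receptor for uric acid crystals and dead cells whose tail carries an inhibitory motif. It stood at 602, 618 and 426 TPM in AC replicates 1, 2 and 3, against 584, 634 and 667 TPM in untreated replicates 1, 2 and 3. *Clec4a2*, which encodes the inhibitory receptor DCIR, stood at 226, 239.6 and 144 TPM in AC replicates 1, 2 and 3, against 198, 227 and 228 TPM in untreated replicates 1, 2 and 3. For both, AC replicate 3 alone lay below the other 5 libraries. *Clec4a3*, a further gene of the DCIR group, stood at 745, 761 and 497 TPM in AC replicates 1, 2 and 3, against 696, 819.7 and 714 TPM in untreated replicates 1, 2 and 3. *Clec4a1*, of the same group, stood at 968, 1100.4 and 847 TPM in AC replicates 1, 2 and 3, against 998, 1067 and 1037 TPM in untreated replicates 1, 2 and 3. Neither *Clec4a3* nor *Clec4a1* is classed as inhibitory here. AC replicate 3 was again the lowest library for both, and it was the lowest for 5 of the 9 receptors, *Clec4n* being the other.

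The log2 differences of this set were -0.21 ± 0.17 for *Clec12a* (95% interval -0.61 to 0.18), -0.13 ± 0.20 for *Clec4a2* (-0.59 to 0.33), -0.18 ± 0.19 for *Clec4a3* (-0.61 to 0.26) and -0.10 ± 0.14 for *Clec4a1* (-0.43 to 0.23). They rest on AC replicate 3. Without it they were -0.04 for *Clec12a*, 0.10 for *Clec4a2*, 0.02 for *Clec4a3* and -0.0024 for *Clec4a1*. Without AC replicate 2 they were further from 0, at -0.27 for *Clec4a2*, -0.29 for *Clec4a3* and -0.19 for *Clec4a1*. Between the libraries of replicate 3 they were -0.65 for *Clec12a*, -0.66 for *Clec4a2*, -0.52 for *Clec4a3* and -0.29 for *Clec4a1*, while among replicates 1 and 2 they lay between -0.0045 and 0.13. The median over the 9 receptors was likewise 0.02 without AC replicate 3, and it was -0.22 without AC replicate 1 and -0.25 without AC replicate 2. The interaction with library set was 0.79 ± 0.26 for *Clec4a2* and 0.65 ± 0.25 for *Clec12a*, each with an adjusted p of 0.697 by limma. *Gm23935* was highest in the same library, and with TPM computed without that gene the differences were -0.18 for *Clec12a* and -0.10 for *Clec4a2*.

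**Figure D4:**
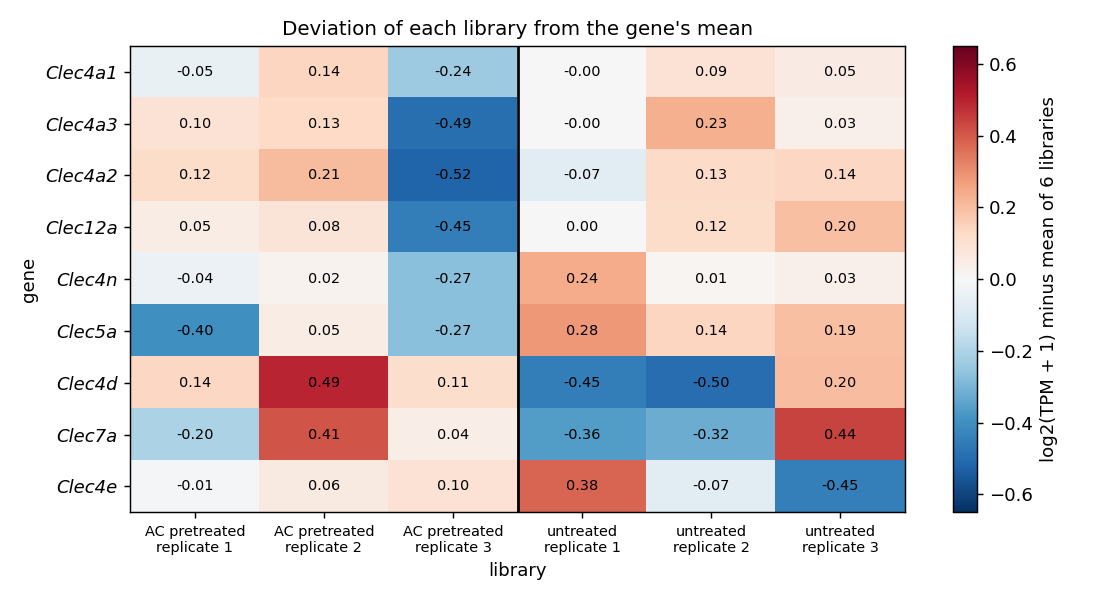
Deviation of log2(TPM + 1) in each library (x axis, AC pretreated libraries left of the untreated ones) from the mean of the 6 libraries, by gene (y axis). *Clec4a1*, *Clec4a2*, *Clec4a3*, *Clec12a* and *Clec4n* are lowest in AC replicate 3, and *Clec4d* and *Clec7a* are low in untreated replicates 1 and 2 and high in untreated replicate 3 and AC replicate 2.

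**Figure D5:**
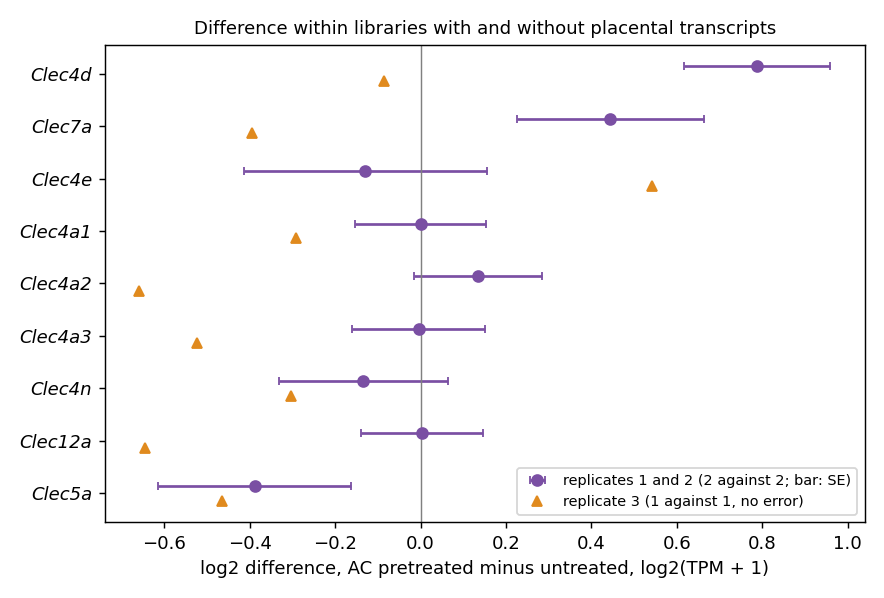
Log2 difference of each receptor, AC pretreated minus untreated (x axis), by gene (y axis), among replicates 1 and 2, whose libraries held placental transcripts (circles, bar of 1 SE), and between the libraries of replicate 3, which held none (triangles, 1 library a group). *Clec5a* and *Clec4n* are below 0 in both sets, as is *Clec4a3*, which is next to 0 among replicates 1 and 2 (-0.0045). The other 6 receptors change sign between the sets, *Clec4a1* and *Clec12a* from values next to 0 among replicates 1 and 2.

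Marker sums of other cells that carry these receptors were far below the macrophage marker sum in both groups. The 12 neutrophil markers summed to 41.7 to 61.0 TPM in AC pretreated and 38.7 to 74.9 TPM in untreated libraries, with 3 of them below 1 TPM everywhere. The 8 monocyte markers summed to 31.8 to 39.6 TPM in AC pretreated and 30.2 to 37.5 TPM in untreated libraries, with 3 below 1 TPM everywhere. The 10 dendritic cell markers summed to 20.2 to 24.98 TPM in AC pretreated and 18.9 to 27.8 TPM in untreated libraries, with 4 below 1 TPM everywhere. These sums overlapped between the groups. The neutrophil and monocyte sums were above the levels of *Clec5a*, *Clec4n* and *Clec4e* in every library. The part of such cells in the values of the receptors was not tested.

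Of 20 genes of activating signalling, 17 had lower means after AC pretreatment and 3 higher, with 0 called in either direction and a median log2 difference of -0.09. Lower means thus made up 85% of this list and 70.6% of all genes, whose median was -0.07. The adaptor gene *Fcer1g* was far above every receptor, at 5897, 4483 and 3153 TPM in AC replicates 1, 2 and 3, against 4867, 5432 and 3812 TPM in untreated replicates 1, 2 and 3. *Tyrobp* stood at 4212, 2842 and 2921 TPM in AC replicates 1, 2 and 3, against 3463, 3268 and 3690.0 TPM in untreated replicates 1, 2 and 3. The groups overlapped for both adaptors. *Syk*, the kinase itself, differed by -0.03 ± 0.21 in log2 units, and *Prkcd*, the kinase that acts on Card9, by -0.01 ± 0.16. *Vav1*, an exchange factor downstream of Syk, stood at 286, 256 and 299 TPM in AC replicates 1, 2 and 3, against 397, 339.8 and 303 TPM in untreated replicates 1, 2 and 3. *Lyn*, a Src family kinase gene, stood at 269, 307 and 306 TPM in AC replicates 1, 2 and 3, against 349, 333 and 319 TPM in untreated replicates 1, 2 and 3. *Vav1* and *Lyn* were 2 of 20 genes whose groups did not overlap, each in the lower direction, against 3.48% of all genes in that direction, with log2 differences of -0.30 ± 0.15 and -0.18 ± 0.13 and adjusted p of 1.0 by limma.

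Of 6 tested genes of inhibitory signalling, 5 had lower means (83.3%, against 70.6% of all genes). Of the 6, 0 were called in either direction, and the median log2 difference was -0.16. *Ptpn6*, which encodes the phosphatase SHP-1, differed by -0.23 ± 0.16, and *Inpp5d*, which encodes SHIP-1, by -0.16 ± 0.20. *Inppl1*, *Ptpn11* and *Rubcn* lay between -0.18 and -0.15, and *Cblb*, a ubiquitin ligase gene, stood at 0.17 ± 0.24. Of 40 other C-type lectin genes 13 passed the filter of 1 TPM in 3 libraries. Of those 13, 9 had lower means (69.2%, against 70.6% of all genes), 4 higher and 0 were called, with a median of -0.11. *Cd72*, which encodes an inhibitory lectin-like receptor, was more abundant than any of the 9, at 1433, 1254 and 1266 TPM in AC replicates 1, 2 and 3, against 1711, 1615 and 1633 TPM in untreated replicates 1, 2 and 3. Its groups did not overlap, which held for 1 of the 13 and, in the same lower direction, for 3.48% of all genes. Its log2 difference was -0.33 ± 0.13 (adjusted p of 1.0 by limma). *Mrc1*, the mannose receptor gene, averaged near *Clec7a* in level and differed by -0.06 ± 0.30. *Cd93*, *Clec2d*, *Cd302* and *Clec4b1* differed by -0.07 ± 0.26, -0.23 ± 0.18, -0.14 ± 0.16 and -0.11 ± 0.20.

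Of 16 genes that Syk and Card9 signalling is known to switch on, 10 passed the filter. Of these 10, 6 had lower means (60%, against 70.6% of all genes), 4 higher and 0 were called, with a median log2 difference of -0.03. *Il1b*, which encodes an inflammatory cytokine, stood at 30.1, 15.1 and 9.05 TPM in AC replicates 1, 2 and 3, against 19.8, 12.3 and 6.65 TPM in untreated replicates 1, 2 and 3, a log2 difference of 0.41 ± 0.46. *Egr2*, an early response gene, stood at 6.49, 14.9 and 18.4 TPM in AC replicates 1, 2 and 3, against 7.90, 7.61 and 15.2 TPM in untreated replicates 1, 2 and 3, a difference of 0.30 ± 0.39. *Tnf*, *Il10*, *Nlrp3* and *Nfkbia* differed by -0.22 ± 0.17, -0.16 ± 0.22, -0.31 ± 0.27 and -0.03 ± 0.12.

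The 3 receptors with the widest range over the libraries were *Clec4d*, *Clec4e* and *Clec7a*, and the genes most like each in pattern were sought among 8555 others by Pearson's r over the 6 libraries, as a description. For *Clec7a* they were *Anxa1* (r of 0.993), *Tspyl3* (0.992) and *Bnip3* (0.989). *Anxa1*, the annexin A1 gene, stood at 901, 1449.8 and 1104 TPM in AC replicates 1, 2 and 3, against 858, 828 and 1398 TPM in untreated replicates 1, 2 and 3. It thus had the same low pair of untreated libraries and the same high untreated replicate 3. For *Clec4d* they were *Akr1b8* (0.989), *Mtrf1l* (0.987) and *F10* (0.979), and for *Clec4e* they were *Tpst2* (0.970), *Pank4* (0.970) and *Rasal3* (0.969). The 6 points share the groups and the library sets, and no p is given.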

How the data were processed

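Poly(A) RNA of 6 BMDM libraries was sequenced. STAR 2.7.10a, featureCounts 2.0.3, Subread and mm10 stand in the submitters' processing notes, with no role or order. The notes and labels leave out annotation, strand setting and treatment of shared reads. The test was planned for TPM. The authors deposited 1 signal value per gene and library under the name TPM. The deposited signal is not scaled for library size: column totals were 54732 to 92831. Multiplied by merged exon length (GENCODE mouse release 21) and divided by 8.57, it gave whole reads in all libraries for 23488 of 23829 genes (98.6%, within 0.02 reads or 0.0001 of the count).

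Each column was rescaled to 1000000 TPM. Genes with at least 1 TPM in 3 libraries were fitted with limma 3.58.1 (R 4.3.3; eBayes with trend) on log2(TPM + 1), which understates changes of low genes, 2-sided, with Benjamini-Hochberg adjustment over 12603 genes. No replicate pair agreed within sampling noise. The fit was tested on simulated counts in which genes varied independently, with no shifts of whole libraries like those seen here. That test does not show how the fit performs with such shifts. Other steps used Python 3.11.15, pandas 2.3.3 and matplotlib 3.10.9. The members and lists were chosen with earlier results of these data known. Beyond the 9 receptors, the 6 most abundant members of each list and the 3 genes most like each of 3 receptors were named; Gm23935, Lyz2, cluster genes and markers fall outside that rule and were named after their values were seen. As alternatives, the pseudocount, filter, scaling and variance model were changed, replicate number was blocked, and libraries were left out. Voom on recovered reads, a library set term and its interaction, and TPM without Gm23935 were chosen after seeing the data.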

Additional observations from a re-analysis of the deposited data

How the results depend on the processing

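Over all genes, 0 passed in 16 of the 18 tested alternatives. The exceptions were the values as deposited, with 2 genes (Lyz2 and the small RNA gene Gm24187), and the fit without a variance trend, with 1 gene (Gm22279); none was a receptor, and 0 of the 9 receptors passed in any of the 18. With the 5 TPM filter and with the values as deposited, Clec4e was not tested. At an unadjusted p under 0.05 voom on recovered reads gave 99 genes, and leaving out 1 library gave 106 to 797. For the receptors that count, 2, was 0 with the values as deposited and 1 with the replicate block, with no filter, without a variance trend, among replicates 1 and 2, with library set as a term and without Gm23935. With the replicate block 0 genes passed (225 unadjusted). The numbers are not said to pair libraries: deviations from the group means correlated at -0.06, 0.0098 and 0.17 for numbers 1, 2 and 3, and not every library correlated best with its own number. Clec5a and Clec4n kept their direction in all 19 alternatives. For Clec5a most of these could not have turned it. Its groups do not overlap, so no choice of libraries could. A changed filter, block, library set term or variance model leaves the difference of a receptor as it was. These settings could thus not have turned Clec4n either, which stayed at -0.19 in them. Among replicates 1 and 2, log2 differences turned for Clec4a1 (0.00017), Clec4a2 (0.13), Clec4e (-0.13) and Clec12a (0.0028). In replicate 3 they turned for Clec4d (-0.085) and Clec7a (-0.40). The median over the receptors, -0.13, was -0.25 to 0.023 on leaving out 1 library and -0.40 in replicate 3. On leaving out 1 library, ranges that crossed 0 were -0.27 to 0.10 for Clec4a2, -0.29 to 0.023 for Clec4a3 and -0.10 to 0.31 for Clec4e. The causes were not tested. With median-of-ratios scaling the median over all genes was -0.0079 and that of the receptors -0.06, and each receptor kept its direction. Each group held only 3 libraries, and Clec4e had only 67 to 163 reads per library. Their part in the precision was not tested.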

Other observations

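Ratios between the receptors within a library do not depend on scaling between libraries. Of the 36 pairs of receptors, 7 had ratios that did not overlap between the groups, 5 of the 7 held Clec4d, and 3 held Clec5a, whose own levels did not overlap. The share among pairs of other genes was not computed. They were computed after the values of the single genes were seen, they share members, and they were not tested. TPM of Clec4d over that of Clec7a was 1.46, 1.23 and 1.21 in AC replicates 1, 2 and 3, against 1.09, 1.02 and 0.977 in untreated replicates 1, 2 and 3. The ratio of Clec4d to Clec12a was 0.742 to 1.03 in AC pretreated and 0.454 to 0.700 in untreated libraries. The ratio of Clec4d to Clec5a was 32.6 to 36.3 in AC pretreated and 14.6 to 24.5 in untreated libraries. Clec4d and Clec7a followed a like pattern over libraries, though not the same order, with Clec4d the higher relative to Clec7a in each AC library. The ratio of Clec4a2 to Clec4a3 moved little, at 0.291 to 0.315 in AC pretreated and 0.276 to 0.320 in untreated libraries.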
